A study of Equus caballus with 23 samples.

Results

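Heat shock proteins and chaperones were followed in the gluteus medius, a large hindquarter muscle, of Arabian horses in race training. The group was defined by gene symbol: symbols starting with HSP (other than HSPG) or DNAJ, the numbered CCT genes, TCP1, CRYAB and STIP1. It held 63 genes out of 8842 genes with a symbol in the authors' tables and 26991 genes in the count table, and all 63 passed the filter on low counts that left 11545 genes for testing. RNA from needle biopsies was sequenced in 23 libraries at 3 time points. The first, T0, was untrained muscle at an age of 2.5 years, with 5 libraries from 3 males and 2 females. Muscle taken at 3 years, when intense gallop training was over and flat racing had not begun, made up T1, with 8 libraries from 4 males and 4 females. The third, T2, was taken at 3 years once the racing season had ended, with 10 libraries from 7 males and 3 females. Age and training cannot be told apart in any comparison with T0. Repeat sampling of a horse is not stated in the labels, nor is the delay between exercise and biopsy, and the p-values reflect only how far these libraries differ among themselves.

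Chaperones bind unfolded or partly folded proteins and keep them from clumping. HSP70 proteins do so in cycles of ATP hydrolysis that J proteins (the DNAJ genes) start by delivering clients, HSP90 proteins act late in folding, and ring-shaped chaperonins enclose their clients, HSPD1 with its cap in mitochondria and the 8-subunit TRiC complex, built from TCP1 and the CCT proteins, in the cytosol. Small heat shock proteins need no ATP, and several of them, CRYAB first among them, are abundant in striated muscle, where they bind desmin, filamin and other parts of the Z-disc. Exercise is known to raise heat shock proteins in skeletal muscle, and slow oxidative fibres carry more of several of them than fast glycolytic fibres. The heat shock factors HSF1 and HSF2 drive the cytosolic genes, whereas ATF6 and XBP1 drive chaperones of the endoplasmic reticulum.

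Library totals spanned 12604125 to 17477172 counts in T0, 15417737 to 23641809 in T1 and 12185608 to 19804694 in T2. As a mean share of the total, the 63 genes took 0.544% (SD 0.104, n = 5) at T0, 0.543% (SD 0.111, n = 8) at T1 and 0.628% (SD 0.104, n = 10) at T2. Levels are given in CPM, counts divided by the TMM-scaled size of the library. They are not divided by gene length, so levels are compared only within a gene. The TMM factors spanned 0.7489 to 1.448 in T0, 0.6604 to 1.071 in T1 and 0.8025 to 1.221 in T2. Fold changes and overlaps between groups rest on this scaling, whereas the shares above are of unscaled totals. Overlaps without the scaling were not examined. All 12 slow fibre and all 12 fast fibre contractile markers were detected, as the muscle label implies, and the balance between them differed by time point. Summed slow fibre markers spanned 8607 to 32980 CPM in T0 (median 10810), 30560 to 138200 CPM in T1 (median 44900) and 10400 to 43150 CPM in T2 (median 13360). All 12 slow fibre markers were higher in T1 than in T0, and 11 of 12 were lower in T2 than in T1. Of 12 fast fibre markers, 5 were lower in T1 than in T0 and 11 were higher in T2 than in T1. Of 6 fibroblast markers, 2 were lower in T1 than in T0. Of 6 smooth muscle and pericyte markers, 2 were lower in T2 than in T1 and 2 were lower in T2 than in T0. Of 3 adipocyte markers, 1 was higher in T1 than in T0 and 1 lower in T2 than in T1. Of 5 macrophage markers, 1 was lower in T2 than in T1, and their sum stayed between 4.88 and 12.9 CPM. Of the neutrophil, lymphocyte and erythroid markers, 0 were tested. Symbols were looked up only in the authors' tables, so a marker missing there and a marker with low counts were not told apart. Nothing is said here about the level of these cell types. In bulk muscle, fewer cells or fibres of a type and less RNA per cell cannot be told apart. Library m3 of T1 was the most slow-fibred of all, and m6 of T1 and m14 of T2 stood apart in stress-inducible genes. Counts that rest on these libraries are given with and without them.

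The number of genes past an adjusted p of 0.05 (edgeR's quasi-likelihood test, Benjamini-Hochberg over all genes tested) differed widely between the comparisons. After the gallop phase, 5 of the 63 genes were higher in T1 than in T0 and 0 were lower, or 7.94% of the group beside 6.91% of all genes tested. By direction, 3.57% of all genes were higher and 3.34% lower. CRYAB, HSPB7, DNAJA4, HSPD1 and DNAJA3 were those 5. At an unadjusted p below 0.05, 11 genes were higher and 3 lower, 22.2% of the group beside 21.8% of all genes. Besides edgeR, DESeq2 called 0 lower genes and limma voom called 1, DNAJC18. From the gallop phase to the end of the season, 13 genes were higher in T2 than in T1 and 6 were lower, 30.2% of the group beside 27.6% of all genes. In that comparison 12.6% of all genes were higher and 15.1% lower. At the end of the season against untrained muscle, 18 genes were higher in T2 than in T0 and 1 was lower, 30.2% of the group beside 16% of all genes. Of all genes, 6.73% were higher and 9.3% lower there. The shares of all genes are over the 11545 genes tested, and some of these have no symbol in the authors' tables. Members come only from the 8842 genes with a symbol, so the gene sets are unlike. Shares over genes with a symbol alone were not computed. Single libraries moved these counts: the 13 became 7 without m17 of T2 and 8 without m7 of T1, the 6 became 3 without m2, m5 or m11 of T1 or m16 of T2, and the 18 became 8 without m13 and 10 without m9 of T0. Calls over all genes, in either direction, fell too. For T2 minus T1 they went from 3188 to 2665 without m17, 2728 without m7 and 2683 to 2787 without m2, m5, m11 or m16. For T2 minus T0 they went from 1851 to 986 without m13 and 1075 without m9. The 3 comparisons share libraries and are not independent of one another.

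The median log2 fold change of the 63 genes was 0.13 for T1 minus T0, 0.16 for T2 minus T1 and 0.32 for T2 minus T0, beside -0.02, -0.01 and -0.03 over all genes tested. By pattern, 5 genes were higher in T1 than in T0. Of these, DNAJA3 and DNAJA4 were lower in T2 than in T1 but still higher than in T0. HSPB7 was lower in T2 than in T1 and did not pass against T0. CRYAB and HSPD1 did not pass between T2 and T1 and were higher in T2 than in T0. A further 6 genes (CCT4, TCP1, DNAJA2, DNAJC2, DNAJC7 and DNAJC8) were higher in T2 than in both earlier groups, and 33 genes passed in none of the 3 comparisons.

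**Figure D1:**
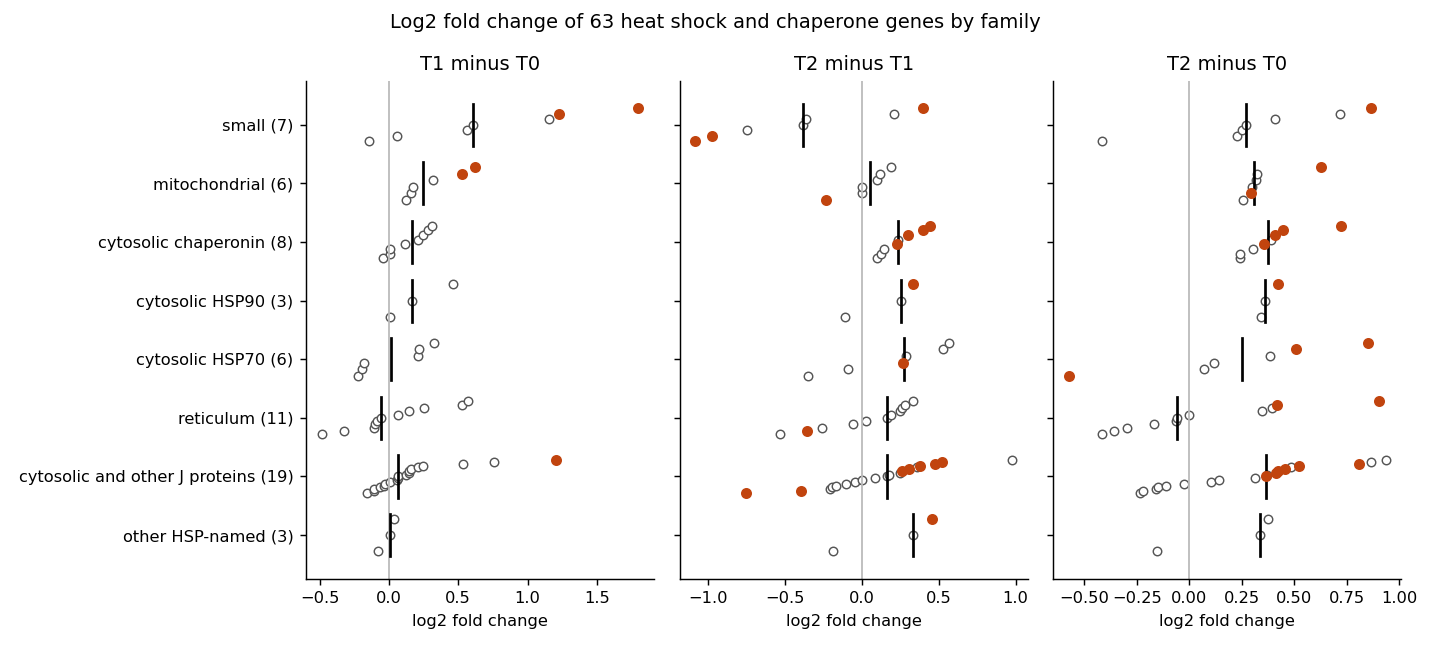
Log2 fold change of each of the 63 genes (points; filled where the adjusted p was below 0.05) in 8 families for T1 minus T0, T2 minus T1 and T2 minus T0, with the family median as a black bar; the horizontal scales differ between panels. The small heat shock proteins have the highest median for T1 minus T0 (0.61) and the lowest for T2 minus T1 (-0.38), whereas all 8 cytosolic chaperonin genes lie above 0 for T2 minus T0. All libraries are included, m3 and m6 of T1 among them.

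The families did not move alike, as the plot of fold changes by family shows. For T1 minus T0 the median log2 fold change was 0.61 for 7 small heat shock proteins (2 higher, 0 lower), 0.25 for 6 mitochondrial genes (2 higher, 0 lower), 0.16 for 8 cytosolic chaperonin genes (0 called) and -0.06 for 11 genes of the endoplasmic reticulum (0 called). For T2 minus T1 the small heat shock proteins had a median of -0.38 (1 higher, 2 lower) and the cytosolic chaperonin a median of 0.23 (4 higher, 0 lower). Averaged over the 7 small heat shock proteins, log2 CPM was highest in m6 of T1 (7.29, T1 median 6.32, T2 median 6.04). Among these genes, HSPB1 had 485.3 CPM in m6 and 452.9 CPM in m3, and 148.2 to 227.6 CPM in the other T1 libraries. Family medians without m3 or m6 were not computed. For T2 minus T0 the cytosolic chaperonin had a median of 0.37 (4 higher, 0 lower) and the mitochondrial genes one of 0.31 (2 higher, 0 lower). These family values are descriptions and were not tested against one another.

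Set against untrained muscle, the muscle sampled after gallop training had its largest changes of the group among the small heat shock proteins. CRYAB encodes alpha-B crystallin, a Z-disc and desmin-binding small heat shock protein (ENSECAG00000012507, chromosome 7, 20466837 to 20470095; the coordinates throughout are those of the authors' tables, whose build no source used here names). It ran from 888.6 to 1899 CPM in T1 with a median of 1154 CPM, against 482.9, 531.4, 529.8, 620.2 and 451.2 CPM in the T0 libraries. The lowest T1 library lay above the highest T0 library, and m3 was the highest of all. The log2 fold change was 1.23 ± 0.22 (SE, adjusted p = 0.00246), and it was 1.19 without m3 and m12 (adjusted p = 0.00287).

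HSPB7 encodes a small heat shock protein of heart and skeletal muscle that binds filamin C (ENSECAG00000024540, chromosome 2, 36994708 to 36997046). It ran from 64.6 to 118.8 CPM in T1 with a median of 83.3 CPM, against 16.1, 21.8, 16.99, 26.2 and 45.3 CPM in T0. Again the groups did not overlap, with T0 library m13 nearest to T1. The log2 fold change of 1.80 ± 0.43 (SE, adjusted p = 0.0154) was the largest of the 63. Of the 5 calls it alone was lost in any alternative, when m10 of T0 was left out (adjusted p = 0.0556).

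The other 5 small heat shock proteins did not pass between T1 and T0. HSPB1 averaged 259.8 ± 132 CPM in T1 (SD, n = 8), against 170.4 ± 58.1 CPM in T0 (SD, n = 5), and did not pass (0.61 ± 0.28 SE, adjusted p = 0.207). HSPB3, a muscle protein that pairs with HSPB2, averaged 5.38 ± 4.51 CPM in T1 and 2.44 ± 0.58 CPM in T0, with an adjusted p of 0.056 that was 0.0185 in DESeq2. Its highest T1 library was m6 at 16.1 CPM, and the others had 2.42 to 6.31 CPM. HSPB6, also called HSP20, averaged 76.3 ± 28.6 CPM in T1 and 51.7 ± 47.1 CPM in T0. In that gene T0 library m13 had 133.6 CPM whereas the other T0 libraries had 20.4 to 49.2 CPM, and m13 was the highest T0 library in 6 of the 7 small heat shock proteins. HSPB8, the partner of BAG3 in the autophagic removal of damaged Z-disc proteins, averaged 174.5 ± 148 CPM in T1 and 167.3 ± 52.6 CPM in T0. Here too m6 was the highest T1 library, at 537.8 CPM. The other T1 libraries had 98.6 to 141.9 CPM, against 115.8 to 244.3 CPM in T0.

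HSPB2, a binding partner of the myotonic dystrophy kinase, lies beside CRYAB (ENSECAG00000012754, chromosome 7, 20470958 to 20472354), with 862 bases between the annotated genes. In mice and humans this pair is read outward from a shared intergenic region. HSPB2 ran from 22.9 to 40.1 CPM in T1 with a median of 33.4 CPM, against 30.2, 27.7, 44.9, 33.9 and 50.5 CPM in T0, so that its groups overlapped throughout (log2 fold change -0.15 ± 0.17 SE, adjusted p = 0.671). The log2 ratio of CRYAB to HSPB2 within a library was computed after these values had been seen. It averaged 5.15 ± 0.41 in T1 (SD, n = 8), against 3.83 ± 0.47 in T0 (SD, n = 5), and it averaged 4.38 ± 0.52 in T2 (SD, n = 10). Since the ratio was chosen for these values, it is a description and carries no test. HSPB2 was higher in T2 than in T1 (44.6 ± 9.56 against 33.8 ± 5.29 CPM, log2 fold change 0.40 ± 0.14 SE, adjusted p = 0.0336), where CRYAB did not pass. That HSPB2 call was lost without m6 and m14 and without 7 of the 23 libraries left out singly.

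**Figure D2:**
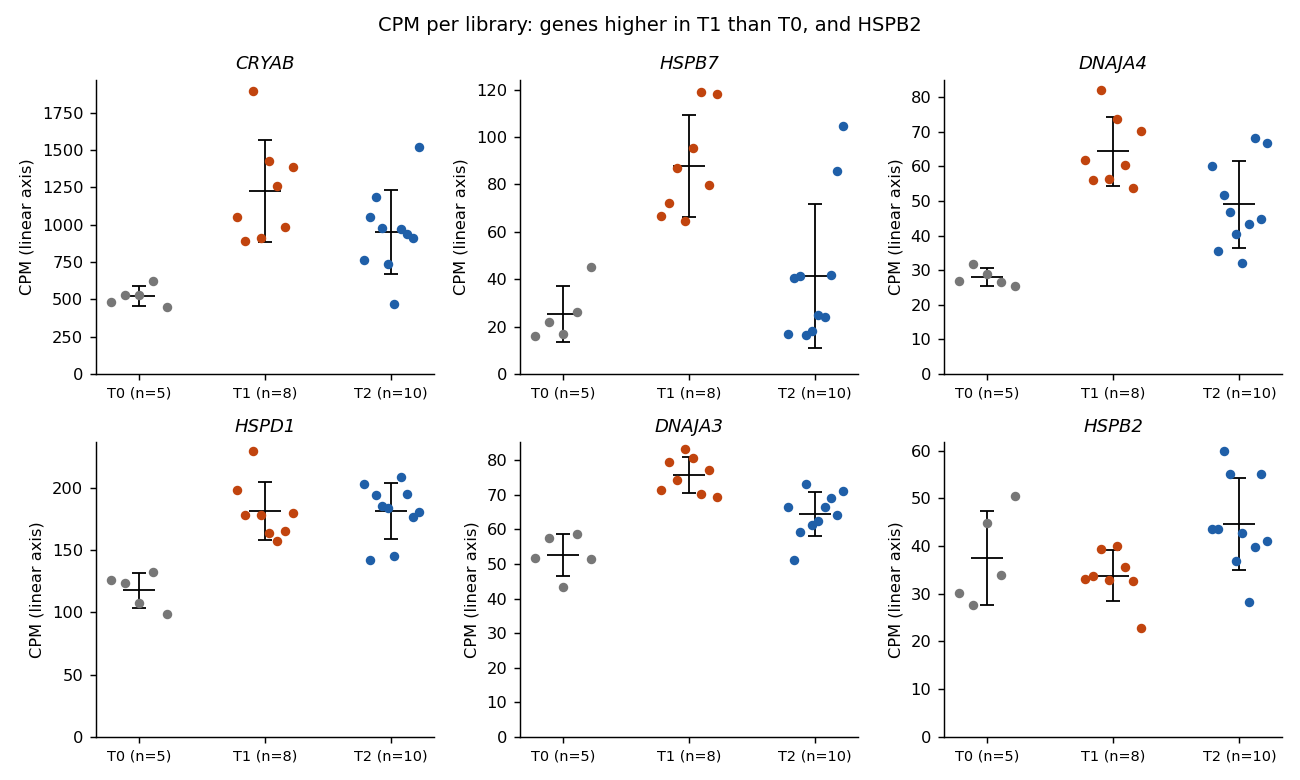
CPM (linear axes) in each library for the 5 genes higher in T1 than in T0 and for HSPB2, by time point, with the mean and SD of each group in black. In CRYAB, HSPB7, DNAJA4, HSPD1 and DNAJA3 every T1 library lies above every T0 library, whereas the HSPB2 groups overlap; T2 libraries of HSPB7 range from 16.4 to 104.8 CPM.

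HSPD1, the mitochondrial chaperonin also known as HSP60 (ENSECAG00000008968, chromosome 18, 72759557 to 72770155), ran from 157.1 to 230.1 CPM in T1 with a median of 178.5 CPM, against 125.7, 123.7, 107.9, 132.8 and 99.0 CPM in T0. No T1 library overlapped the T0 range after TMM scaling. Its log2 fold change was 0.62 ± 0.12 (SE, adjusted p = 0.00381). At the end of the season HSPD1 had 142.0 to 208.6 CPM in T2 (median 184.7 CPM), also above the whole T0 range (T2 minus T0 0.63 ± 0.12 SE, adjusted p = 0.00285). The T2 minus T1 difference was 0.00 ± 0.10 on the log2 scale. DNAJA3, the J protein that works with mitochondrial HSP70 (ENSECAG00000003503, chromosome 13, 38507588 to 38536748), ran from 69.4 to 83.2 CPM in T1 with a median of 75.8 CPM, against 51.9, 57.4, 43.2, 58.7 and 51.6 CPM in T0. These groups did not overlap either, and the log2 fold change was 0.53 ± 0.10 (SE, adjusted p = 0.00334). In T2 it was intermediate at 51.1 to 73.1 CPM (median 65.4 CPM). It was lower than in T1 (-0.23 ± 0.08 SE, adjusted p = 0.0342) and higher than in T0 (0.29 ± 0.10 SE, adjusted p = 0.0373), and each of those 2 calls was lost without 7 of the 23 libraries left out singly. The other 4 mitochondrial genes passed in no comparison. DNAJC28 had the largest T1 minus T0 change of these (0.32 ± 0.13 SE, adjusted p = 0.129), DNAJC15, an inner membrane J protein, the smallest (0.13 ± 0.26 SE), and DNAJC19, of the protein import motor, and DNAJC11, of the cristae-organizing machinery, had T2 minus T0 changes of 0.30 ± 0.13 and 0.26 ± 0.12.

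DNAJA4, a cytosolic J protein that works with HSP70 (ENSECAG00000023807, chromosome 1, 115897064 to 115906426), ranked 2 of 11545 genes by p for T1 minus T0. It ran from 53.8 to 82.2 CPM in T1 with a median of 61.1 CPM, against 26.8, 31.9, 29.0, 26.6 and 25.4 CPM in T0. The lowest T1 library was far above the highest T0 library, and the log2 fold change was 1.20 ± 0.16 (SE, adjusted p = 0.000523). T2 libraries ran from 32.2 to 68.3 CPM (median 45.8 CPM), just above the whole T0 range and overlapping T1. DNAJA4 was lower in T2 than in T1 (-0.39 ± 0.13 SE, adjusted p = 0.0269) and higher in T2 than in T0 (0.81 ± 0.16 SE, adjusted p = 0.00333). The lower level in T2 than in T1 did not pass without m3 and m12 (-0.34, adjusted p = 0.0529), nor without m5 or m11 of T1.

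Of the 63 genes, the same 5 had groups that did not overlap between T1 and T0 in TMM-scaled CPM, 7.94% beside 2.98% of all genes tested. The cytosolic HSP70 and HSP90 proteins, the cytosolic chaperonin and the endoplasmic reticulum genes had 0 calls by edgeR between T1 and T0. HSP90AB1, the constitutive HSP90, averaged 351.3 ± 115 CPM in T1 (SD, n = 8), against 254.5 ± 54.7 CPM in T0 (SD, n = 5), and did not pass (0.47 ± 0.18 SE, adjusted p = 0.123). Its highest T1 library was m3 at 611.9 CPM, the others lay between 266.5 and 392.1 CPM, and without m3 and m12 the change was 0.46 (adjusted p = 0.0398). HSPA8, the constitutive HSP70, averaged 798.8 ± 143 CPM in T1 and 686.0 ± 94.0 CPM in T0 (adjusted p = 0.448). In the reticulum group DNAJB9 had the highest change (0.57 ± 0.28 SE, adjusted p = 0.242) and DNAJC18 the lowest (-0.48 ± 0.17 SE, adjusted p = 0.0872).

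Like the 5 genes called, all 12 slow fibre markers were higher in T1 than in T0. From T1 to T2, 11 of the 12 were lower, while HSPB7, DNAJA3 and DNAJA4 were lower and CRYAB and HSPD1 did not pass. To set the genes beside fibre type within a time point, each library was given a score, the average log2 CPM over slow fibre markers less the average over fast fibre markers. It spanned -5.65 to -3.64 in T0, -2.33 to 4.35 in T1 and -4.89 to -2.54 in T2. The T0 and T1 ranges did not overlap, so a relation pooled over time points was not computed. Within T1 (n = 8) and T2 (n = 10), 20 relations of 10 genes were computed, and 0 passed correction by Pearson's r or Spearman's rho. HSPD1 had r = 0.85 and rho = 0.74 in T1 (exact permutation p = 0.0395 and p = 0.0458, adjusted p = 0.247 and 0.305), and r was 0.73 without m3 and m11, the 2 libraries farthest from the median score. CRYAB had r = 0.78 and rho = 0.43 in T1 (exact permutation p = 0.0494 and p = 0.299, adjusted p = 0.247 and 0.738), but r was -0.08 without those 2 libraries, so its relation rested on them. HSPB7 had r = 0.19 in T1 and 0.58 in T2, and r in T2 was 0.08 without m23 and m17. Negative relations were seen in T1 for HSPB6 (r = -0.68, exact permutation p = 0.00947, adjusted p = 0.189; rho = -0.74, exact permutation p = 0.0458, adjusted p = 0.305) and HSPB8 (r = -0.42, exact permutation p = 0.0394, adjusted p = 0.247; rho = -0.83, exact permutation p = 0.0154, adjusted p = 0.305), with r = -0.42 and -0.47 without m3 and m11. The part of fibre composition in the T1 minus T0 differences of these genes was not tested.

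**Figure D3:**
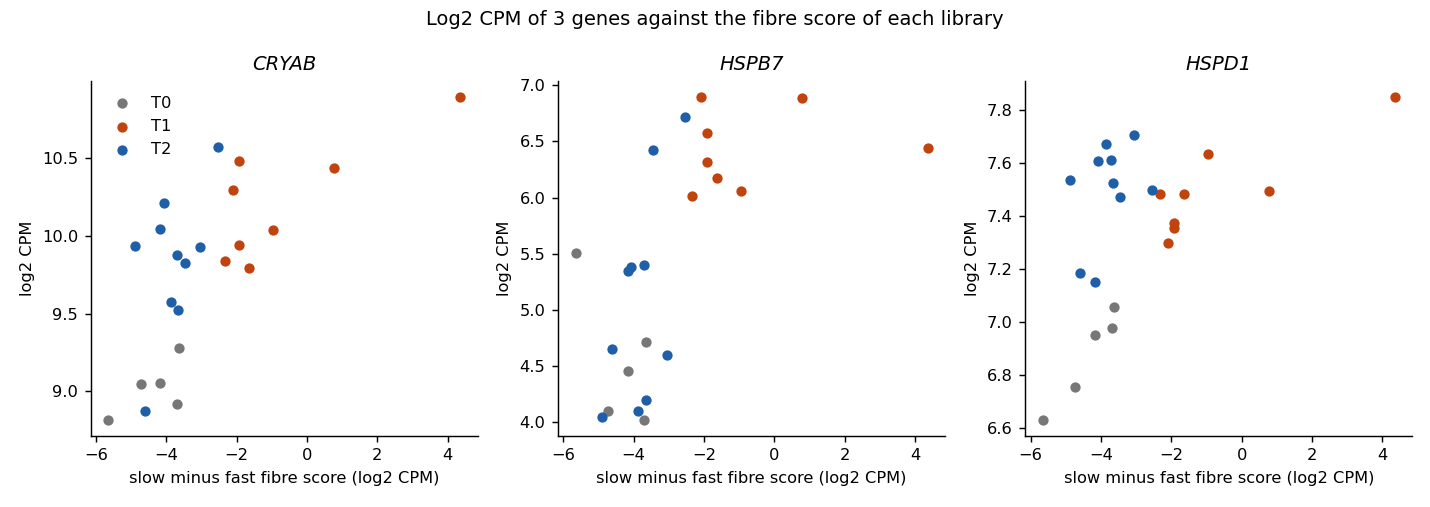
Log2 CPM of CRYAB, HSPB7 and HSPD1 (vertical axes) against the slow minus fast fibre score (horizontal axes, log2 CPM) in each library, coloured by time point. T1 libraries lie to the right of all T0 libraries and m3 farthest right at 4.35, while T2 libraries overlap T0 in score and reach T1 levels of HSPD1.

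At the end of the season the scores lay near those of untrained muscle, and HSPD1, CRYAB and DNAJA4 were above T0. CRYAB ran from 468.0 to 1520 CPM in T2 with a median of 956.2 CPM, and its T2 minus T0 change was 0.86 ± 0.21 (SE, adjusted p = 0.0103). All T2 libraries except m19 at 468.0 CPM lay above the T0 range. Of the 12 slow fibre markers 1 was higher in T2 than in T0 (median log2 fold change 0.50), and of the 12 fast fibre markers 0 were called (median 0.04).

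The 6 genes lower in T2 than in T1 were HSPB7 and HSPB6, both small heat shock proteins, and the J proteins DNAJA3, DNAJA4, DNAJC27 and DNAJC10. HSPB7 ran from 16.4 to 104.8 CPM in T2 with a median of 32.8 CPM, against 64.6 to 118.8 CPM in T1. T2 libraries m22 and m23, at 85.8 and 104.8 CPM, lay within the T1 range and the other 8 below it. The log2 fold change was -1.08 ± 0.33 (SE, adjusted p = 0.019), and it was -0.91 with an adjusted p of 0.0548 without m6 and m14. Against T0 the T2 change of 0.72 ± 0.40 did not pass (adjusted p = 0.22). HSPB6 ran from 13.8 to 75.9 CPM in T2 with a median of 36.2 CPM, against 46.5 to 133.6 CPM in T1 with a median of 67.4 CPM, and the groups overlapped. Its change of -0.97 ± 0.36 (SE, adjusted p = 0.0473) was lost without 16 of the 23 libraries left out singly. DNAJC27, a J protein with a Rab-like GTPase domain, averaged 0.72 ± 0.19 CPM in T2 and 1.19 ± 0.39 CPM in T1 (-0.75 ± 0.22 SE, adjusted p = 0.0121), a call lost without m6 and m14 (-0.61, adjusted p = 0.0519). DNAJC10, a disulphide reductase of the reticulum, averaged 11.1 ± 3.02 CPM in T2 and 14.2 ± 1.595 CPM in T1 (-0.35 ± 0.13 SE, adjusted p = 0.0476), a call lost without 17 of the 23 libraries left out singly. Without m6 and m14, 2 genes, DNAJA3 and DNAJA4, were lower in T2 than in T1 in place of 6.

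In the cytosolic chaperonin TRiC, which folds actin and tubulin, 4 of 8 genes were higher in T2 than in T1 and 4 of 8 were higher in T2 than in T0. TCP1, its alpha subunit (ENSECAG00000017953, chromosome 31, 2122903 to 2132458), ran from 57.2 to 101.5 CPM in T2 with a median of 79.4 CPM, against 40.1 to 85.2 CPM with a median of 54.2 CPM in T1. The T0 libraries had 36.3, 56.9, 44.0, 53.3 and 43.9 CPM. T2 did not overlap T0 and overlapped T1 in part, with m3 the highest T1 library. The log2 fold change was 0.72 ± 0.16 against T0 (SE, adjusted p = 0.00583) and 0.44 ± 0.13 against T1 (SE, adjusted p = 0.0157), and both calls held in every alternative.

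The subunits differed in size of change and in whether they passed. CCT8 ran from 82.8 to 121.3 CPM in T2 with a median of 103.5 CPM, against 71.3, 71.0, 79.1, 79.2 and 71.8 CPM in T0, without overlap (0.45 ± 0.12 SE, adjusted p = 0.0129). CCT3 ran from 58.3 to 78.3 CPM in T2, against 50.4, 52.1, 55.0, 51.3 and 46.8 CPM in T0, also without overlap (0.41 ± 0.12 SE, adjusted p = 0.0204), though the call was lost without m13 of T0. CCT4 averaged 70.7 CPM in T0 (SD 10.6, n = 5), 68.6 CPM in T1 (SD 12.9, n = 8) and 90.4 CPM in T2 (SD 10.2, n = 10). It was higher in T2 than in T1 (0.40 ± 0.11 SE, adjusted p = 0.00689). Its T2 minus T0 call (0.36 ± 0.12 SE, adjusted p = 0.0494) sat at the threshold and was lost without 17 of the 23 libraries left out singly. CCT5 was higher in T2 than in T1 (56.9 ± 8.47 against 46.3 ± 7.38 CPM, 0.30 ± 0.10 SE, adjusted p = 0.0254), and CCT6A passed there at an adjusted p of 0.049 (114.4 ± 14.1 against 97.5 ± 9.20 CPM, 0.23 ± 0.09 SE). CCT6A lost that call without 15 of the 23 libraries left out singly, and CCT5 lost its own without m2 or m7 of T1 or m17 of T2. CCT5 did not overlap between T2 and T0 but did not pass (0.30 ± 0.11 SE, adjusted p = 0.0677).

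CCT2 and CCT7 passed in no comparison. CCT2 averaged 132.5 ± 21.1 CPM in T2 and 101.1 ± 14.2 CPM in T0 (0.39 ± 0.14 SE, adjusted p = 0.0628), and CCT7 averaged 86.1 ± 12.2 CPM in T2 and 73.0 ± 9.91 CPM in T0 (0.24 ± 0.13 SE, adjusted p = 0.202). Both passed against T0 without m3 and m12 (adjusted p = 0.00447 for CCT2 and 0.0167 for CCT7). Library m3 was the highest of T1 in 7 of the 8 subunits. Within T2, m17 was highest in 6 subunits and m15 lowest in 6. Averaged over the 8 subunits, the log2 CPM was 6.07 at T0 (SD 0.10, n = 5), 6.20 at T1 (SD 0.20, n = 8) and 6.45 at T2 (SD 0.16, n = 10). Its T2 range of 6.18 to 6.74 overlapped the T0 range of 5.95 to 6.23.

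**Figure D4:**
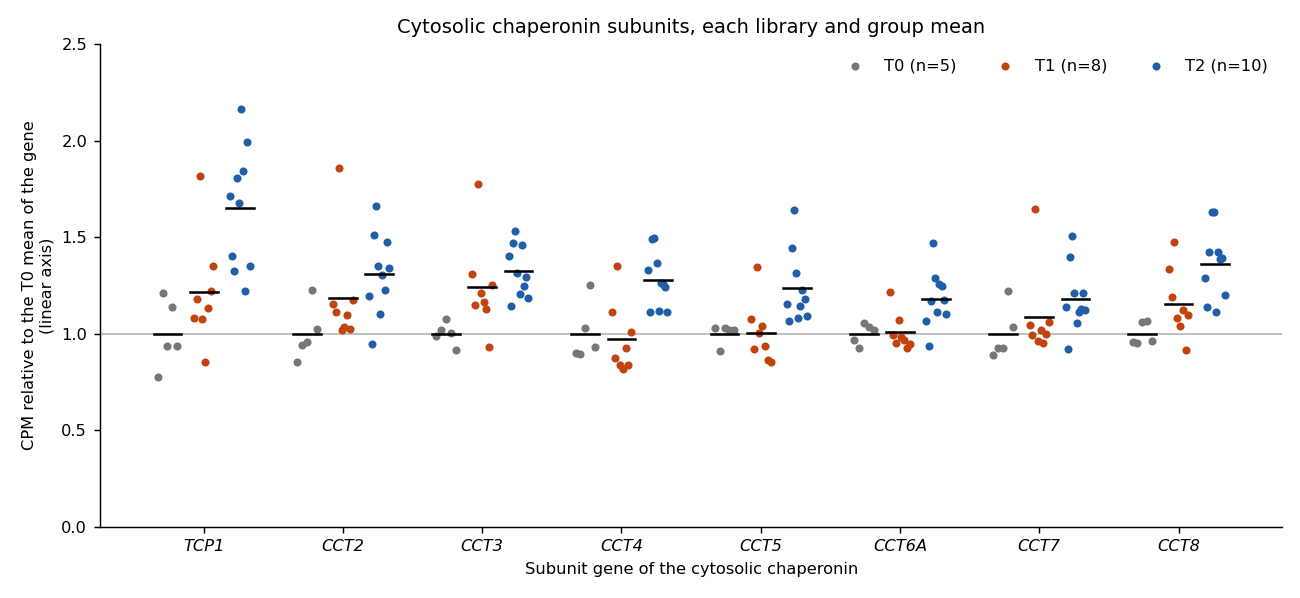
CPM of the 8 cytosolic chaperonin genes in each library relative to the T0 mean of that gene (linear axis, 1 = T0 mean), by time point, with group means as bars. T2 means lie above T0 means in all 8 genes, and the highest T1 point in 7 of them is library m3.

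HSPA8, the constitutive HSP70, and HSP90AA1, the inducible HSP90, were also higher at the end of the season than in untrained muscle, whereas HSP90AB1 did not pass (T2 minus T0 0.36 ± 0.18 SE, adjusted p = 0.158). HSPA8 (ENSECAG00000013510, chromosome 7, 30252010 to 30256607) ran from 708.0 to 1196 CPM in T2 with a median of 934.1 CPM, against 666.0, 650.7, 718.9, 824.4 and 570.1 CPM in T0. Of the T2 libraries only m21, at 708.0 CPM, lay within the T0 range. The change was 0.51 ± 0.15 (SE, adjusted p = 0.0255). HSP90AA1 (ENSECAG00000018948, chromosome 24, 43796134 to 43800432), ran from 567.8 to 905.8 CPM in T2 with a median of 809.4 CPM, against 537.8, 549.1, 605.5, 630.2 and 577.7 CPM in T0 (0.42 ± 0.12 SE, adjusted p = 0.0237). The groups overlapped through T2 libraries m15 and m19. For both genes the call was lost without T0 library m9 or m13. Reads of these genes and of HSPD1 can be shared with near-identical pseudogene copies, and no source used here says how the counting split them.

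STIP1 (HOP), the adaptor that joins HSP70 to HSP90, ran from 50.6 to 96.0 CPM in T2 with a median of 56.3 CPM, against 41.6 to 59.3 CPM with a median of 49.2 CPM in T1 (0.33 ± 0.11 SE, adjusted p = 0.0309). Library m14 was the highest of T2, and without m6 and m14 the change was 0.29 (adjusted p = 0.0338). The call was lost without m1, m5 or m7 of T1 or m14 or m17 of T2 alone. HSPA14, a ribosome-associated HSP70, averaged 22.3 ± 2.22 CPM in T2 (SD, n = 10) and 18.5 ± 1.37 CPM in T1 (SD, n = 8), a change of 0.27 ± 0.07 (SE, adjusted p = 0.00946). DNAJC2, its ribosome-bound J protein partner, averaged 27.9 ± 3.31 CPM in T0, 30.8 ± 4.51 CPM in T1 and 40.1 ± 6.20 CPM in T2. It was higher in T2 than in T1 (0.38 ± 0.10 SE, adjusted p = 0.00846) and than in T0 (0.52 ± 0.12 SE, adjusted p = 0.00782), and both calls held in every alternative. HSPA4, a nucleotide exchange factor of the HSP110 kind, did not pass in any comparison.

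HSPA12B, an HSP70 relative known from endothelial cells, was the only gene of the 63 lower in T2 than in T0. It ran from 2.49 to 6.38 CPM in T2 with a median of 4.74 CPM, against 7.86, 7.27, 6.52, 5.19 and 7.65 CPM in T0 (-0.57 ± 0.16 SE, adjusted p = 0.0203). The groups overlapped through T0 library m12. The call was lost without T0 library m8, m9 or m13. Of 6 endothelial markers 0 were called there, where their median log2 fold change was -0.34, with summed levels of 140.7 to 227.8 CPM in T2 and 194.0 to 293.5 CPM in T0. Their part in the HSPA12B difference was not tested.

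Further J proteins of the cytosol and nucleus were higher in T2 than in both earlier groups. DNAJC7, which binds both HSP70 and HSP90, ran from 63.7 to 114.2 CPM in T2 with a median of 85.6 CPM, against 55.0 to 64.7 CPM in T1 with a median of 61.2 CPM. Only m20 among the T2 libraries, at 63.7 CPM, lay within the T1 range. This was the strongest T2 minus T1 change of the 63 genes by p (0.52 ± 0.10 SE, adjusted p = 0.000784). Its T2 minus T0 change was 0.36 ± 0.12 (SE, adjusted p = 0.0427), lost without 10 of the 23 libraries left out singly. DNAJA2, the close relative of DNAJA4, averaged 63.7 CPM in T0 (SD 2.77, n = 5), 71.2 CPM in T1 (SD 4.75, n = 8) and 85.4 CPM in T2 (SD 12.4, n = 10). Its T2 libraries all lay above T0 (0.42 ± 0.10 SE, adjusted p = 0.0094), and it passed against T1 (0.26 ± 0.09 SE, adjusted p = 0.028), a call lost without m5 or m6 of T1 or m17, m18 or m20 of T2. DNAJC8, a splicing-associated J protein, averaged 24.4 ± 3.64 CPM in T0, 27.0 ± 4.81 CPM in T1 and 33.4 ± 6.16 CPM in T2. It passed against T0 (0.45 ± 0.13 SE, adjusted p = 0.0245), a call lost without m9 or m13 of T0, and against T1 (0.31 ± 0.11 SE, adjusted p = 0.046), a call lost without 13 of the 23 libraries left out singly.

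DNAJC24, which acts in diphthamide synthesis, averaged 10.7 ± 1.72 CPM in T2 and 7.73 ± 1.70 CPM in T1 (0.47 ± 0.12 SE, adjusted p = 0.00525). HSPB11, which despite its symbol encodes an intraflagellar transport subunit, averaged 8.48 ± 1.26 CPM in T2 and 6.20 ± 1.13 CPM in T1 (0.46 ± 0.11 SE, adjusted p = 0.00442). DNAJC4, 25261 bases from STIP1 on chromosome 12 (24537049 to 24539722; STIP1 24502747 to 24511787), averaged 15.5 ± 2.66 CPM in T2 and 11.6 ± 1.66 CPM in T0 (0.41 ± 0.13 SE, adjusted p = 0.0297), and lost its call without m9 or m10 of T0 or m22 of T2. Within the 19 cytosolic and other J proteins, the lowest T2 minus T0 change was that of DNAJC13, an endosomal protein (-0.23 ± 0.11 SE, adjusted p = 0.13).

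In the endoplasmic reticulum, 2 of 11 genes were higher in T2 than in T0. HSPA5, the reticulum HSP70 known as BiP (ENSECAG00000024205, chromosome 25, 29075011 to 29078885), ran from 42.2 to 58.4 CPM in T2 with a median of 47.6 CPM, against 31.0, 36.2, 37.1, 37.9 and 39.3 CPM in T0. The groups did not overlap (0.42 ± 0.13 SE, adjusted p = 0.0356), though the call was lost without 5 of the 23 libraries left out singly. DNAJB9, a J protein of BiP, ran from 10.6 to 52.2 CPM in T2 with a median of 28.6 CPM, against 20.3, 18.3, 18.9, 13.3 and 10.4 CPM in T0 (0.90 ± 0.28 SE, adjusted p = 0.0311). Its T2 libraries spread widely, m19 and m17 lay within the T0 range, and the call was lost without m9, m12 or m13 of T0. It was also lost with no filter on low counts, in limma voom, with only the 2 time points compared, and without m3 and m12. HSPA13, a microsomal HSP70, had the lowest T2 minus T1 change of the reticulum (-0.53 ± 0.20 SE, adjusted p = 0.0514). In all, 8 of the 63 genes had T2 and T0 groups that did not overlap (CCT3, CCT5, CCT8, TCP1, DNAJA2, DNAJA4, HSPA5 and HSPD1), 12.7% beside 2.67% of all genes tested. Between T2 and T1 the count was 0 of 63, beside 2.23% of all genes.

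In the classical stress-inducible genes single libraries stood far above the rest of their time point. HSPA1A, the inducible HSP70 (ENSECAG00000001037, chromosome 20, 31564653 to 31566581), had 1815 CPM in T2 library m14, whereas the other T2 libraries had 243.6 to 533.7 CPM. In T1 it had 600.3 CPM in m6 and 276.0 to 377.2 CPM in the others, and in T0 it had 329.0, 330.7, 406.7, 412.4 and 509.3 CPM. It passed in no comparison (T2 minus T1 0.57 ± 0.31 SE, adjusted p = 0.171; T2 minus T0 0.38 ± 0.35 SE, adjusted p = 0.475), and T2 minus T0 was -0.09 without m6 and m14. HSPA1A has a near-identical neighbouring copy in mammals, so its counts are uncertain. DNAJB1, the J protein induced with it, had 86.1 CPM in m14 and 7.75 to 20.4 CPM in the other T2 libraries. Its T2 minus T1 change was 0.98 ± 0.44 (SE, adjusted p = 0.104) with m14 and m6 and 0.21 without them.

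HSPH1, the HSP110 nucleotide exchange factor, had 48.3 CPM in m14 and 12.9 to 28.8 CPM in the other T2 libraries, against 14.3, 14.2, 13.8, 6.47 and 11.6 CPM in T0. Its T2 minus T0 change was 0.85 ± 0.25 (SE, adjusted p = 0.0258) and 0.64 without m6 and m14 (adjusted p = 0.031), but it did not pass without m3 and m12 (0.71, adjusted p = 0.0505) or without m12 or m13 alone. Nor did it pass in limma voom or with only the 2 time points compared. Library m12 was the lowest of T0. HSPBAP1 also had its highest T2 levels in m14 and m21, at 16.03 and 16.02 CPM.

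Library m6 of T1 stood out in a set that overlapped that of m14, with HSPA1A in both. DNAJB4, a J protein of striated muscle, had 334.8 CPM in m6 and 48.1 to 108.4 CPM in the other T1 libraries. HSPB8 had 537.8 CPM in m6 and 98.6 to 141.9 CPM in the others, and HSPB3 had 16.1 CPM in m6 and 2.42 to 6.31 CPM in the others. HSPB1 had 485.3 CPM in m6, followed by 452.9 CPM in m3. In T2, DNAJB4 had 232.3 CPM in m15, 183.2 CPM in m14 and 153.2 CPM in m21, and 55.2 to 117.2 CPM elsewhere. HSPB8 had 303.1 CPM in m15 and 297.7 CPM in m14 of T2, and 149.5 to 196.8 CPM in the other T2 libraries. The summed level of 4 tested acute stress genes was 450.6 CPM in m6 beside a T1 median of 37.3 CPM, and 73.3 CPM in m14 beside a T2 median of 27.3 CPM and a T2 maximum of 76.0 CPM in m15. Their part in these libraries' heat shock levels was not tested. Without m6 and m14, HSPB8 was higher in T2 than in T1 (0.64, adjusted p = 0.00568), whereas with them the change was 0.21 ± 0.28 (SE, adjusted p = 0.605). Leaving out m6 and m14 was added after seeing the data, in which m6 was extreme for HSPB8 itself. The value without them is therefore a description and no test. The counts of genes higher were 5 for T1 minus T0, 12 for T2 minus T1 and 16 for T2 minus T0 without m6 and m14. They were 6, 19 and 26 without m3 and m12. Over all genes, calls in either direction were 798, 3188 and 1851 of 11545 in the main fit. These were 805, 2790 and 1754 of 11469 without m6 and m14, and 800, 3957 and 2947 of 11700 without m3 and m12.

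**Figure D5:**
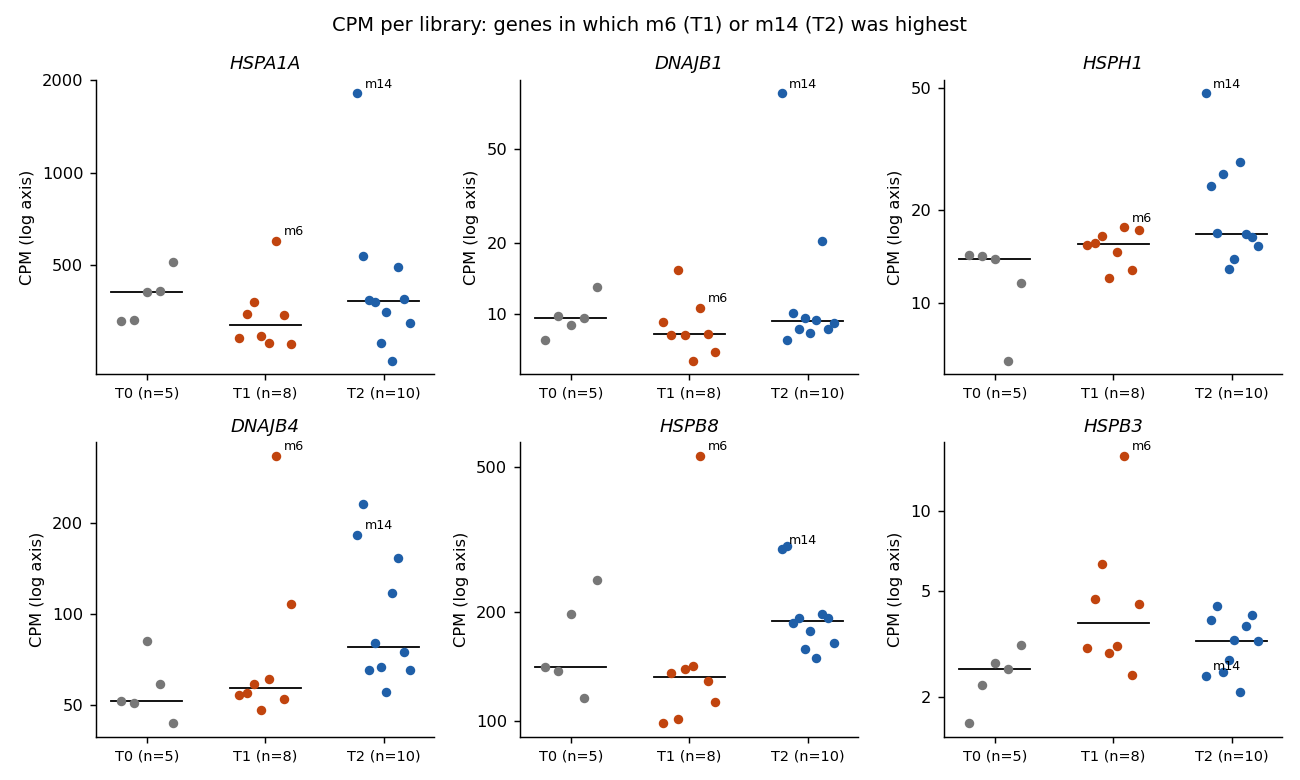
CPM (log axes) in each library for HSPA1A, DNAJB1, HSPH1, DNAJB4, HSPB8 and HSPB3 by time point, with group medians as bars and libraries m6 and m14 named. Library m14 is the highest point for HSPA1A (1815 CPM), DNAJB1 (86.1 CPM) and HSPH1 (48.3 CPM), and m6 for DNAJB4 (334.8 CPM), HSPB8 (537.8 CPM) and HSPB3 (16.1 CPM).

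Regulators and partners outside the 63 genes were read from 3 lists. Of 8 tested regulators of the heat shock and unfolded protein responses, 2 were higher in T1 than in T0 and 0 lower. HSF2 averaged 19.7 ± 7.21 CPM in T1 (SD, n = 8), against 11.7 ± 0.73 CPM in T0 (SD, n = 5), a change of 0.75 ± 0.18 (SE, adjusted p = 0.0161), and DDIT3, a stress-induced transcription factor, changed by 0.60 ± 0.18 (SE, adjusted p = 0.0417). In T2, 3 were lower than in T1: ATF6 (-0.77 ± 0.16 SE, adjusted p = 0.00101), HSF2 (-0.51 ± 0.15 SE, adjusted p = 0.0129) and XBP1 (-0.56 ± 0.18 SE, adjusted p = 0.0193). ATF6 was also lower in T2 than in T0 (5.37 ± 1.75 against 8.31 ± 1.28 CPM, -0.62 ± 0.18 SE, adjusted p = 0.0222), in the comparison in which HSPA5 was higher. A link between ATF6 and HSPA5 levels was not tested, and only RNA levels of the regulators were measured, not their activity. The called shares of this short list are 25% for T1 minus T0, 37.5% for T2 minus T1 and 12.5% for T2 minus T0, beside 6.91%, 27.6% and 16% of all genes. HSF1 averaged 27.3 ± 4.32 CPM in T0, 28.4 ± 4.63 CPM in T1 and 30.9 ± 4.48 CPM in T2 and passed in no comparison.

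Of 28 co-chaperones, 0 were higher and 1 lower in T1 than in T0, 5 higher and 2 lower in T2 than in T1, and 5 higher and 0 lower in T2 than in T0, all by edgeR's test. These are 3.57%, 25% and 17.9% of the list, beside 6.91%, 27.6% and 16% of all genes, so the late shares lie near those of all genes. The T1 minus T0 change was that of TOMM34, a mitochondrial import co-chaperone (-0.75 ± 0.19 SE, adjusted p = 0.0165). Genes called late included 3 partners of HSP90: PPID, a cyclophilin (T2 minus T1 0.51 ± 0.10 SE, adjusted p = 0.000967), PTGES3, also called p23 (T2 minus T0 0.44 ± 0.13 SE, adjusted p = 0.0267), and AHSA1, which activates its ATPase (T2 minus T0 0.37 ± 0.09 SE, adjusted p = 0.0119). TTC1 was higher in T2 than in T1 (0.59 ± 0.10 SE, adjusted p = 0.000273), and BAG4, an HSP70 exchange factor named after its values were seen, was lower (-0.48, adjusted p = 0.0154). GRPEL1, the exchange factor of mitochondrial HSP70, was higher in T2 than in T0 (0.48 ± 0.12 SE, adjusted p = 0.00981).

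Of 25 other tested chaperones, 1 was higher in T1 than in T0, 4 were higher and 3 lower in T2 than in T1, and 5 were higher and 1 lower in T2 than in T0. These are 4%, 28% and 24% of the list, beside the same 6.91%, 27.6% and 16% of all genes. Prefoldin hands actin and tubulin to the cytosolic chaperonin, and its subunits were among them. PFDN2 averaged 25.2 ± 10.8 CPM in T1 and 14.5 ± 2.32 CPM in T0 (0.79 ± 0.19 SE, adjusted p = 0.0148). PFDN4 was higher in T2 than in T1 (0.81 ± 0.15 SE, adjusted p = 0.000308) and PFDN6 in T2 than in T0 (0.63 ± 0.17 SE, adjusted p = 0.0187). MKKS, a chaperonin-like protein, averaged 42.0 ± 6.10 CPM in T0, 46.7 ± 8.28 CPM in T1 and 65.7 ± 8.45 CPM in T2 (T2 minus T0 0.65 ± 0.13 SE, adjusted p = 0.0033). CLPX, of the mitochondrial matrix, was lower in T2 than in T1 (-0.36 ± 0.09 SE, adjusted p = 0.00366). SMYD1, a muscle methyltransferase that acts in myosin assembly, was lower in T2 than in T0 (34.5 ± 8.14 against 57.9 ± 5.12 CPM, -0.75 ± 0.16 SE, adjusted p = 0.00493).

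Between females (9 libraries) and males (14 libraries), with time point in the model, 0 of the 63 genes and 0% of all genes passed by edgeR's test. At an unadjusted p below 0.05, 3 were higher and 1 lower in females, 6.35% of the group beside 6.23% of all genes, and DESeq2 and limma voom each called 0 of the 63. The 4 were DNAJB4 (0.85 ± 0.31 SE, adjusted p = 0.752), HSPB8 (0.66 ± 0.22 SE, adjusted p = 0.694), HSPB3 (0.53 ± 0.25 SE, adjusted p = 0.802) and DNAJC15 (-0.41 ± 0.18 SE, adjusted p = 0.795). Library m6, the highest of all for the 3 that leaned higher in females, was from a female, and its part in these differences was not tested.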

How the data were processed

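RNA was sequenced, per the labels, in 50 single-end cycles with 6 technical repetitions from unstranded TruSeq libraries, so a gene and an antisense partner cannot be told apart. Per the submitters' processing notes FastQC, STAR, RSEM and DESeq2 were used, with no version numbers. The authors deposited expected counts per gene and per transcript, whole numbers in these files, and no depth beyond the counts is known. Per the file headers, the authors' deposited comparison tables give a mean normalized count (a signal), a log2 fold change with its standard error, a Wald score, a p-value and an adjusted p-value. Those tables name groups by letters and were used here only for symbols, coordinates and transcripts.

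Genes passing filterByExpr (minimum count 10, minimum total count 15; 99.93% of all counts) were tested in R 4.3.3 with edgeR 4.0.16, using TMM scaling, 1 model over the 3 time points and the quasi-likelihood F test with robust dispersions, with Benjamini-Hochberg adjustment over all 11545 genes at a threshold of 0.05. The standard error is the log2 fold change over the square root of F. Log2 CPM used a prior count of 2. The test was checked on simulated data.

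Each of the 63 genes has 1 annotated transcript with the same counts, so transcripts were not tested apart. Sequences and promoters were not used here. The members and lists were chosen with earlier results of these data known. The text names genes past the threshold, a panel of 24 chaperones, of which 18 had an identifier under that symbol, the highest and lowest member of a family, and up to 3 called genes of each further list. A gene that this rule names among the co-chaperones is not reported here. HSPE1, HSPA9, HSP90B1, DNAJA1, DNAJB6 and HSPA2 were not analysed here. Alternatives were RLE size factors, no filter, DESeq2 1.42.0, limma voom 3.58.1 with sample weights, sex as a covariate, only the 2 time points compared, each library left out in turn, m3 and m12 left out and, added after seeing the data, m6 and m14 left out. Correlations were tested by permutation in scipy 1.17.1, exactly over 8 libraries and with 100000 resamples over 10. Figures were drawn with matplotlib 3.10.9.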

Additional observations from a re-analysis of the deposited data

Results flagged for a closer look

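In 10 of 108 groups of libraries (9.26%), 1 library lay apart from the rest of its time point by Dixon's criterion. About 5% would be flagged by chance in independent groups. The 108 groups share the same libraries and are not independent, so the difference between these shares carries no test. Library m3 was the highest of T1 for CCT2 (187.8 CPM), HSP90AB1 (611.9 CPM) and HSPB11 (8.76 CPM). Library m6 was the highest of T1 for HSPA1A (600.3 CPM) and HSPB8 (537.8 CPM), and m14 the highest of T2 for HSPA1A (1815 CPM) and DNAJB1 (86.1 CPM). Low libraries were m11 of T1 for HSPB2 (22.9 CPM), m12 of T0 for HSPH1 (6.47 CPM) and m9 of T0 for CCT5 (41.9 CPM, where the other T0 libraries lay between 47.0 and 47.5 CPM). Library m3 was also the highest of T1 in 25 of the 63 genes.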

How the results depend on the processing

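Values past the threshold kept their sign in every alternative, whereas some that did not pass changed sign, such as HSPA1A for T2 minus T0 (0.38, and -0.09 without m6 and m14). For T1 minus T0, genes higher numbered 5 to 7 over the alternatives other than single libraries and 4 to 6 with each library left out (4 without m10), and genes lower were 1 in limma voom and 0 to 0 with each library left out. For T2 minus T1, genes higher were 20 in limma voom, in place of 13, and 7 to 16 with each library left out (7 without m17, 8 without m7), and genes lower were 3 with no filter on low counts and 2 without m6 and m14, in place of 6, and 3 to 7 with each library left out (3 without m2, m5, m11 or m16). For T2 minus T0, genes higher were 8 to 25 with each library left out (8 without m13, 10 without m9, 25 without m3), in place of 18, and genes lower were 3 in limma voom, in place of 1, and 0 to 2 with each library left out (0 without m8, m9 or m13). The sex comparison gave 0 of the 63 in every alternative. Calls over all genes, in either direction, moved too. With each library left out, T2 minus T1 had 2665 to 3775 (3188 in the main fit) and T2 minus T0 had 986 to 2414 (1851). The cause of these moves was not tested. CRYAB, DNAJA3, DNAJA4 and HSPD1 kept their T1 minus T0 calls throughout. So did CCT4, DNAJC2, DNAJC7, DNAJC24, HSPA14, HSPB11 and TCP1 for T2 minus T1, and CCT8, CRYAB, DNAJA2, DNAJA4, DNAJC2, HSPD1 and TCP1 for T2 minus T0. Some calls given as lost without single libraries were also lost in other alternatives. Examples are CCT6A for T2 minus T1 (4 of 8 others) and CCT4 for T2 minus T0 (3 of 8 others). RLE size factors moved the median of all genes by under 0.1 on the log2 scale. No paired analysis was possible because the labels do not say which libraries, if any, came from the same horse. Counting error limits the least expressed genes, such as DNAJC27 at about 1 CPM.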
